A study of Arabidopsis thaliana with 60 samples.

Results

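Histone K4 trimethylation was compared between Landsberg erecta (Ler) wild-type seedlings of Arabidopsis thaliana and 2 mutant alleles of ULTRAPETALA1 (ULT1), ult1-2 and ult1-3, by ChIP-seq, in which an antibody enriches the DNA that carries a given histone mark before sequencing. The members were the 6 single-end K4 peak lists of the series that carry these genotypes, 2 for each, out of 60 libraries in all. Seedlings were 8 days old, and the series' design text puts both loss-of-function alleles in the Ler background. It also names ult1-3 in a Col-0 background, in crosses with PRC2 mutants that were not used here. The Columbia wild type (Col-0) and a line that expresses ULT1 from the viral 35S promoter in Ler (35S::ULT1), likewise with 2 K4 lists each, were set beside them. The antibody tag of the labels names histone H4 for these libraries and the titles give K4 without a histone, which is why the text speaks of K4 trimethylation. The questions asked of the lists were which genes lost or gained the mark in each allele, which did so in both, and which of those genes were in the state seen in Col-0.

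K4 trimethylation is deposited by SET-domain enzymes of the trithorax group and sits over the first nucleosomes of transcribed genes. Polycomb repressive complex PRC2 sets the opposing mark, H3K27me3. ULT1 is a SAND-domain protein that acts with the trithorax group, among others with the K4 methyltransferase ATX1, and is known for limiting floral meristem size and for the timely activation of the floral gene AGAMOUS.

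The 6 lists held 15527 to 16381 peaks, which covered 17.8 to 21.0 Mb and contained 18.2 to 19.8 M ChIP reads (M, 1e6). The number of protein-coding genes marked, out of 27444, was 16827 and 17373 for the Ler lists, 16834 and 17329 for ult1-2, and 16446 and 17415 for ult1-3. A gene counted as marked once its peaks reached 500 bp or, on shorter genes, 50% of the body. In every genotype the list numbered 1 had the lower enrichment over its control. The median fold per peak, the authors' own value, was 2.58 and 4.34 for Ler, 2.44 and 4.47 for ult1-2, and 3.07 and 4.33 for ult1-3. Peak number was 16083 ± 421 (SD, n = 2) in Ler, 15842.5 ± 446 in ult1-2 and 15992 ± 451 in ult1-3 (two-sided exact permutation test of the 4 allele against the 2 Ler libraries, which ignores the list number, p = 0.533). The 15 ways to part the libraries allow no p below 0.0667. Within each number both alleles had fewer peaks than Ler. For list 1 these were 15527 in ult1-2 and 15673 in ult1-3 against 15785. For list 3 they were 16158 and 16311 against 16381. Covered length did not follow peak number. In lists 1 and 3 it was 19.9 and 20.9 Mb for ult1-2 and 17.8 and 21.0 Mb for ult1-3, against 19.3 and 20.7 Mb for Ler. Reads in peaks were 18.2 and 18.9 M for Ler, 19.3 and 18.6 M for ult1-2, and 19.4 and 19.8 M for ult1-3, whose libraries both lay above Ler (all alleles against Ler, exact permutation p = 0.2). The labels do not say whether both libraries of a genotype were grown separately, and each library pools 3 technical reactions from a single extract. The p-values cover at most that library-to-library spread.

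ULT1 itself (AT4G28190, chromosome 4) stayed under a K4 peak in every library. Peaks covered 63.9% and 56.8% of the gene in Ler, 63.9% and 71.0% in ult1-2 and 78.1% and 85.2% in ult1-3. Of these 6 libraries those of ult1-3 were the highest and did not overlap Ler, while 35S::ULT1 reached 78.1% in list 3. Reads per kb of peak per M reads in peaks were lower in ult1-3. They were 45.3 and 45.7 in Ler, 49.4 and 42.5 in ult1-2, and 38.8 and 30.9 in ult1-3. The ULT1 paralog ULT2 (AT2G20825) had no K4 peak in any of the 10 libraries compared.

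Most genes kept their K4 state in both alleles. Of the 27444 genes, 25501 (92.9%) were in the same state in all 6 libraries, 16056 of them marked and 9445 unmarked. In ult1-2, 38 genes lost the mark, that is, were marked in both Ler libraries and in neither allele library, and 35 gained it in the reverse sense. In ult1-3, 76 were lost and 59 gained. Of the 16613 genes that could be lost, 0.229% were lost in ult1-2 and 0.457% in ult1-3, and of the 9857 that could be gained, 0.355% and 0.599% were. This is a rule with no p-value. For scale, 974 genes (3.55%) were marked in 1 Ler library and not in the other, 760 of them in list 3 alone. The rule is looser with 1 library fewer: ult1-2 had 249 losses without its list 3, 88 without its list 1, 181 without Ler list 1 and 120 without Ler list 3. For ult1-3 these counts were 431, 90, 227 and 211. Its gains were 232 without its list 1 and 209 without Ler list 3, and those of ult1-2 were 173, 144, 58 and 220 without its lists 1 and 3 and Ler lists 1 and 3.

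Both alleles shared 19 lost genes and 11 gained genes (11 and 8 with a stricter q-value). Without Ler list 1 the counts were 104 and 20, and without Ler list 3 they were 81 and 98, while leaving out a library of an allele gave 20 to 33 losses and 11 to 22 gains. The 19 and 11 genes were 0.114% of the genes that could be lost and 0.112% of those that could be gained. The shared losses were 50.0% of those of ult1-2 and 25% of those of ult1-3, and the shared gains were 31.4% and 18.6%. The alleles were compared with the same 2 Ler libraries, so a gene at which Ler stood apart was called in both. In 9 of the 19 lost genes all 4 allele libraries had no peak on the gene, and in 6 of the 11 gained genes both Ler libraries had none. Percent cover did not overlap between the 4 allele libraries and the 2 Ler libraries in any of the 30, which the rule nearly fixes. In 20 of the 30 the mean cover moved by at least 500 bp, and in 2 by less than the 200 bp window of the peak lists.

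**Figure D1:**
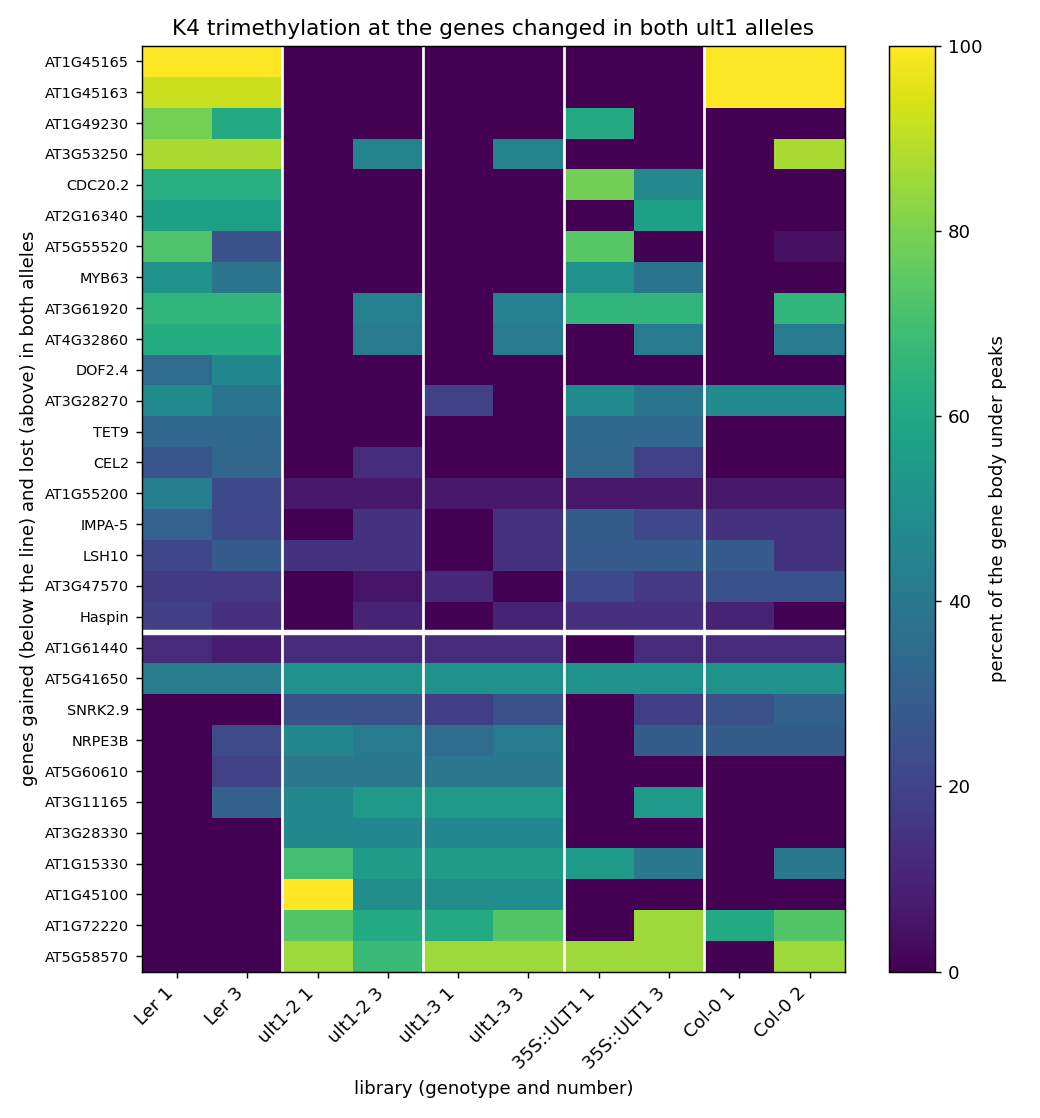
Percent of the gene body under K4 peaks (colour) for the 30 genes lost (19, above the white line) or gained (11, below it) in both alleles, in each of 10 libraries. For lost genes the 4 allele columns are dark or below Ler. List 3 of each allele keeps 44.6% at AT3G53250, 44.0% at AT3G61920 and 41.4% at AT4G32860. For gained genes the 2 Ler columns are dark or below the alleles, with 42.2% in both at AT5G41650. The 35S::ULT1 and Col-0 columns side with Ler at some genes and with the alleles at others.

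Among the genes lost in both alleles, CDC20.2 (AT4G33260, an activator of the anaphase-promoting complex, which drives exit from mitosis) moved most in bp. Its peak on chromosome 4 (16041801 to 16043400) covered 62.9% of the gene in each Ler library and was absent from all 4 allele libraries. It was also absent from both Col-0 libraries, while 35S::ULT1 kept it (78.6% and 47.2%). Haspin (AT1G09450), the kinase that phosphorylates histone H3 at mitosis, went from 19.1% and 14.3% in Ler to 0% and 9.53% in each allele, a move of 500 bp on a long gene. AT5G49310, importin alpha isoform 5 (IMPA-5), one of the adaptors that carry proteins into the nucleus, went from 31.4% and 22.0% to 0% and 14.7% in each allele.

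MYB63 (AT1G79180), an activator of lignin synthesis, had 51.2% and 38.4% cover in Ler and none in the 4 allele libraries. DOF2.4 (AT2G37590), a DOF zinc-finger factor, had 34.9% and 46.5% in Ler and none in the alleles, in 35S::ULT1 or in Col-0, and H3K27me3 peaks covered the whole gene in all 6 H3K27me3 libraries of Ler and the alleles. LSH10 (AT2G42610), of the ALOG family of plant transcription factors, fell less: 21.9% and 29.2% in Ler, 14.6% in both ult1-2 libraries, and 0% and 14.6% in ult1-3. AT3G53250 (SAUR57, a small auxin-upregulated RNA) had 87.3% in both Ler libraries, 0% in list 1 of each allele and 44.6% in list 3 of each. With a stricter q-value or equal peak numbers its cover was higher in the alleles than in Ler, by 22.3 percent points. AT1G49230 (ATL78, a RING-type ubiquitin ligase) had 79.0% and 61.0% in Ler and none in the alleles.

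The cellulase gene CEL2 (AT1G02800) had 26.4% and 32.9% cover in Ler, 0% and 13.2% in ult1-2 and none in ult1-3. The tetraspanin gene TET9 (AT4G30430) had 34.3% in both Ler libraries and none in the alleles. At both, 35S::ULT1 had a peak in each library and Col-0 had none. Largest of the losses in percent were AT1G45163 and AT1G45165, of which the second lies inside the first, so that 1 peak region on chromosome 1 (17089601 to 17091400) counts as 2 of the 19 lost genes. AT1G45165 was covered to 100% in Ler and Col-0 and had no peak in the alleles or 35S::ULT1.

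Of the 11 genes gained in both alleles, 2 carry a symbol in the gene table used. NRPE3B (AT2G15400), a subunit of RNA polymerase V of the RNA-directed DNA methylation pathway, had 0% and 23.3% cover in Ler, 46.6% and 41.2% in ult1-2, and 35.0% and 41.2% in ult1-3. SNRK2.9 (AT2G23030), of the kinase family that relays osmotic stress and abscisic acid, had no peak in Ler, 24.7% in both ult1-2 libraries, and 18.5% and 24.7% in ult1-3. AT3G28330 was covered to 46.8% in each of the 4 allele libraries and had no peak in Ler, 35S::ULT1 or Col-0. AT1G45100 had 100% and 49.4% in ult1-2, 49.4% in both ult1-3 libraries and no peak elsewhere. At the threshold itself, AT1G61440 went from 11.7% and 7.82% to 12.8% in all 4 allele libraries, and AT5G41650 from 42.2% to 51.5%. Those 2 were called for a move of 122 and 88.0 bp, and at AT1G61440 the change turned to -0.145 percent points with a stricter q-value and -2.66 with equal peak numbers.

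None of the 30 genes passed limma's test on covered bp, fitted over 18300 genes in the 6 libraries, which called 0 genes (0%) for ult1-2, for ult1-3, for both alleles together and for the difference between them, with or without the list number as a block. At an unadjusted p under 0.05 it had 88, 182, 150 and 169 genes. The smallest p of the 30 was 8.05e-05 for CDC20.2 with both alleles together (1600 bp lower, SE 70.7; limma adjusted p = 1; lower in 4 of 4 allele libraries). With 3.21 total degrees of freedom and cover counted in windows of 200 bp the test has little power, so 0 calls does not show that cover was equal. Cover of CDC20.2 did not vary within Ler, ult1-2 or ult1-3, so its SE and p rest on the floor set on the variance. Without that floor the test called 171 to 314 genes per contrast.

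The genes that changed in both alleles had weak peaks where they were marked. The 19 lost genes had a median of 28.3 ChIP reads per kb of peak per M reads in peaks in Ler list 1 and 19.8 in Ler list 3, against medians of 53.3 and 50.5 over all marked genes. All 19 were below the lower quartile of the marked genes (44.2 and 40.6) in both Ler libraries. The 11 gained genes stood at a median of 29.9 and 19.4 in ult1-2 and 33.4 and 20.5 in ult1-3, with all 11 under the quartile in both lists numbered 1 and 10 of 11 in both lists numbered 3. Whether their position near the limit of peak calling set these calls was not tested.

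H3K27me3 lay over part of these genes. Here a gene counted as carrying H3K27me3 once its peaks covered 50% of the body, without the bp part of the K4 rule. So counted, 8 of the 19 lost genes carried H3K27me3 in both Ler libraries, against 7.19% of all genes marked by K4 in Ler. That share was not taken for genes with weak K4 peaks alone, such as the 19. CEL2, with H3K27me3 cover of 26.4% and 19.8% in Ler, was not among the 8. The same held for 9 of the 11 gained genes, against 54.4% of all genes unmarked by K4 in Ler. Of the lost genes 7, and of the gained genes 9, carried it in all 6 libraries of that mark from Ler and the alleles. These are descriptions and give no test. At SNRK2.9, for example, H3K27me3 covered 96.6% in both Ler libraries, in both ult1-2 libraries and in list 3 of ult1-3, and 71.9% in list 1 of ult1-3. In bulk chromatin, both marks on the same nucleosomes and each mark in different cells cannot be told apart.

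Of the 19 genes lost in both alleles, 12 were unmarked in both Col-0 libraries, 4 were marked in both (AT1G45163 and AT1G45165, which share a locus, among them) and 3 were split. Of the 11 gained, 5 were in the Col-0 state, 4 were in the Ler state and 2 were split. In 35S::ULT1, where 0.12% of the genes that could be lost and 0.73% of those that could be gained changed against Ler, 6 of the lost genes were in the state of the alleles, 10 in that of Ler and 3 split, and for the gained genes these counts were 3, 3 and 5. Between the accessions, 1.41% of genes that could be lost and 3.67% of those that could be gained had the Col-0 state. All of these comparisons share the 2 Ler libraries, which alone can place a gene in the state of every other genotype. At 3 lost genes and 1 gained gene, Ler stood apart from both alleles, 35S::ULT1 and Col-0 alike. The genes with Ler-like Col-0 and Ler-like 35S::ULT1, changed in the alleles alone, were 2 of the 19 (AT3G28270 and AT3G47570) and 3 of the 11 (AT1G45100, AT3G28330 and AT5G60610) and the gene table gives none of them a symbol. At the 2 lost genes the direction turned with equal peak numbers, to 4.84 and 4.24 percent points higher in the alleles.

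Taken by allele, 43 of the 73 genes changed in ult1-2 (58.9%) and 87 of the 135 changed in ult1-3 (64.4%) were in the Col-0 state. By direction, this was 60.5% of the losses in ult1-2 and 64.5% in ult1-3, and 57.1% and 64.4% of the gains. In 35S::ULT1, set against the same Ler libraries, it was 10 of 20 losses (50%) and 17 of 72 gains (23.6%). Col-0 itself differed from Ler at 1.41% of all genes that could be lost and 3.67% of those that could be gained. The 10 largest gains of ult1-3 held 7 genes in the Col-0 state. AT1G75945, whose peak joins that of the neighbouring SKP1, was at 0% in both Ler and both ult1-2 libraries and at 100% in both ult1-3 and both Col-0 libraries. AT4G34881 and AT1G80970 went from 0% in Ler and ult1-2 to 82.1% and 79.1% in both ult1-3 libraries, and had the same values in Col-0. The 10 largest losses of ult1-3 held 6, among them the pathogenesis-related gene PR5 (AT1G75040), at 73.9% and 59.1% in Ler, 73.9% and 44.3% in ult1-2, and without a peak in ult1-3 and Col-0. LCR68 (AT2G02130), a defensin-like peptide gene, was at 74.1% in both Ler and both ult1-2 libraries and had no peak in ult1-3 or Col-0. In ult1-2, 6 of the 10 largest gains were in the Col-0 state, such as UGT76B1 (AT3G11340), a glucosyltransferase that acts on immune signals, at 0% in Ler, 77.4% and 55.3% in ult1-2, and 66.4% and 77.4% in Col-0. AT2G04380 and AT2G13660 gained 68.1% and 85.9%, and 65.2% in both libraries, in ult1-2 and had no peak in ult1-3.

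Peaks of the 6 lists were merged into 16519 regions, of which 14745 had a peak in every list and were tested with edgeR's quasi-likelihood test. In ult1-3, 13 of the regions (0.0882%) rose and 2 (0.0136%) fell against Ler (0.102% in all), and both Col-0 libraries lay beyond both Ler libraries in the same direction in all 15. Over all tested regions both Col-0 libraries lay above both Ler libraries in 22.6% and below in 35.3%. In ult1-2 and in both alleles together edgeR called 0 regions, with 221 and 383 at an unadjusted p under 0.05 (573 in ult1-3), and DESeq2 called 24 and 74. Libraries with the same number deviated together, and with the number as a block edgeR called 2 regions in ult1-2 (0.0136%) and 96 in ult1-3 (79 higher, 0.536%, and 17 lower, 0.115%). The alleles compared with each other differed at 0 regions without the block (526 at an unadjusted p under 0.05; DESeq2 157) and at 59 with it (0.4%; 46 higher in ult1-3). All 15 calls rest on the 6 libraries together. Leaving out any 1 library left 0, and counting reads per covered length instead of per region also left 0. On counts simulated with a dispersion of its own for each region, more of edgeR's calls were false than the threshold of 0.05 allows, and more with the block than without it. The adjusted p-values of the 15 regions lie just under that threshold, so these calls and those of the block are to be read as uncertain.

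The region with the smallest p in ult1-3 lay on SIG2, and ult1-2 stood between Ler and ult1-3 there. At SIG2 (AT1G08540; chromosome 1, 2703201 to 2704400), a nuclear gene for a sigma factor of the plastid RNA polymerase, Ler had 24.3 and 22.0 reads per M reads in peaks. The ult1-2 libraries had 39.5 and 41.3, the ult1-3 libraries 66.6 and 66.2, and the Col-0 libraries 65.3 and 62.6. The libraries of Ler, ult1-2 and ult1-3 did not overlap (ult1-3 minus Ler, log2 1.51, SE 0.08; edgeR adjusted p = 0.0429; higher in 2 of 2 libraries). The peak was about as long in all (1000 to 1200 bp), and with the covered length as an offset the log2 difference was 1.39 (edgeR adjusted p = 0.300). At HEMA2 (AT1G09940), which encodes glutamyl-tRNA reductase of tetrapyrrole synthesis, Ler had 36.1 and 36.6, ult1-2 44.3 and 48.2, ult1-3 74.1 and 68.2 and Col-0 71.0 and 68.6 reads per M (log2 0.96, SE 0.07; edgeR adjusted p = 0.0478). CJD1 (AT1G08640, a chloroplast J-like domain protein) and AT1G10090 showed the same order, with log2 differences of 0.83 and 0.86 (edgeR adjusted p = 0.0478 for each).

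At other regions ult1-2 stayed near Ler. NPQ7 (AT1G65420, nonphotochemical quenching) had 41.8 and 43.8 reads per M in Ler, while ult1-2 had 41.1 and 46.7, ult1-3 80.8 and 81.9, and both Col-0 libraries 111. Its peak was 800 bp long in Ler and 1600 and 1800 bp in ult1-3, and per covered length its log2 difference turned from 0.92 to -0.16. The region of the heat-shock disaggregase HSP101 (AT1G74310) and AT1G74320 had 80.6 and 80.4 in Ler, 79.2 and 77.6 in ult1-2 and 120 and 118 in ult1-3. The region of ATRZ-1A (an RNA-binding zinc-finger protein) and AT3G26430, on chromosome 3, and that of AT1G29060 and AT1G29070 were also higher in ult1-3 (log2 0.73 and 0.98; edgeR adjusted p = 0.0478 for each). Per covered length the differences were smaller at the other named regions too: 0.57 at AT1G10090, 0.53 at HEMA2, 0.30 at CJD1, 0.32 at HSP101, 0.37 at ATRZ-1A and 0.56 at AT1G29060.

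Both regions that fell in ult1-3 were also lower in both ult1-2 libraries than in Ler, where neither passed edgeR without the block. The first lies in AT1G67120 (MDN1, midasin, an ATPase of large ribosomal subunit maturation; chromosome 1, 25095001 to 25096800). Ler had 99.4 and 100 reads per M, ult1-2 28.1 and 35.6, ult1-3 30.9 and 35.7, 35S::ULT1 29.6 and 30.96 and Col-0 23.8 and 20.7. Ler stood apart from all 4 other genotypes. The log2 difference was -1.65 in ult1-2 (edgeR adjusted p = 0.342, and 0.013 with the number as a block) and -1.59 in ult1-3 (edgeR adjusted p = 0.0478). At AT1G36940 Ler had 57.3 and 58.4, ult1-2 38.8 and 37.1, ult1-3 26.9 and 28.04 and Col-0 26.7 and 26.6, and 35S::ULT1 was higher than Ler (70.1 and 72.3). The log2 difference was -1.08 in ult1-3 (edgeR adjusted p = 0.0478) and -0.61 in ult1-2 (edgeR adjusted p = 0.768, and 0.249 with the block). Both peaks were also shorter where reads were fewer: at AT1G67120 1800 bp in Ler and 600 to 1000 bp in the alleles, and at AT1G36940 1600 bp in Ler and 800 bp in ult1-3. Per covered length the log2 differences in ult1-3 were -0.37 and -0.08.

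**Figure D2:**
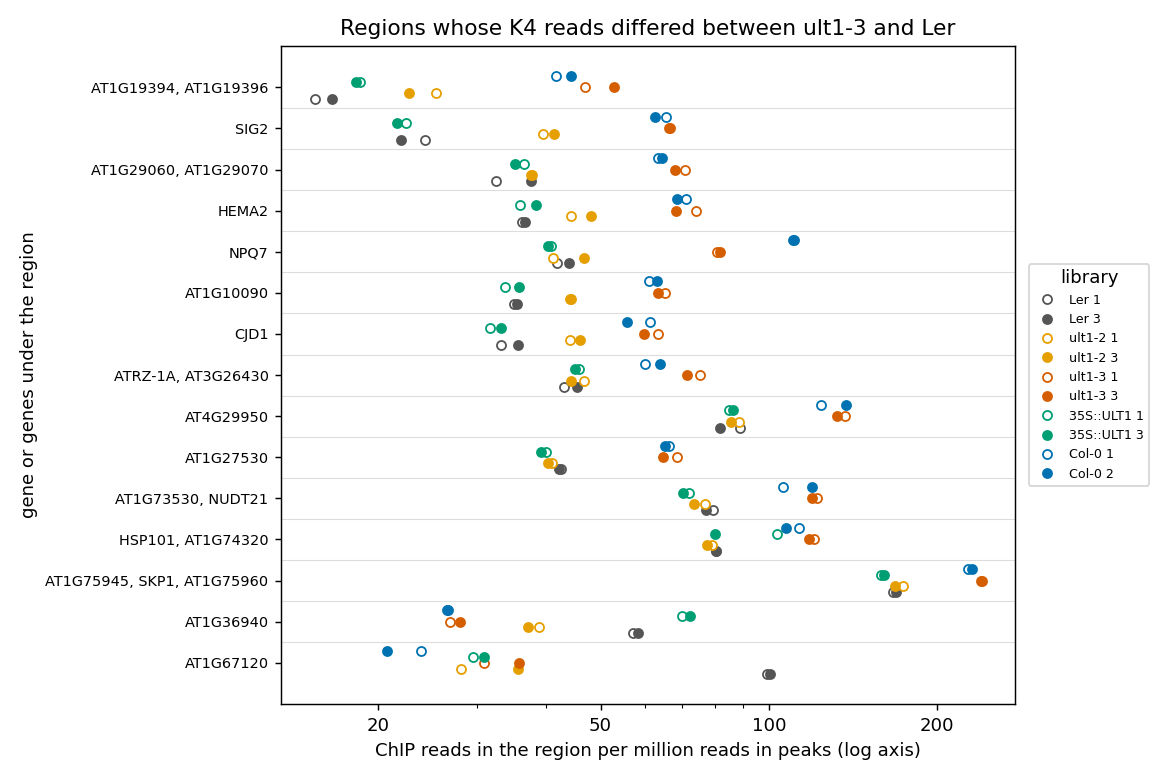
ChIP reads per M reads in peaks (log axis) in the 15 regions called between ult1-3 and Ler, for 10 libraries of 5 genotypes. The ult1-3 and Col-0 points lie on the same side of Ler at all 15 regions, near each other at most of them and apart at NPQ7 (80.8 and 81.9 against 111). At AT1G67120 only Ler is high.

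The ult1-3 changes were not spread evenly over the chromosomes. Of the 597 genes whose K4 state differs between Col-0 and Ler, both ult1-3 libraries had the Col-0 state at 87 and the Ler state at 364, and both ult1-2 libraries at 43 and 421. In ult1-3 this was 41 of 149 such genes on chromosome 1 (27.5%) but 9 of 147 on chromosome 5 (6.12%). In ult1-2 it was 13 (8.72%) and 5 (3.40%), and chromosome 2 was highest (12 of 75, 16.0%). In 35S::ULT1 it was 27 of 597. These shares depend on the number of libraries: 14.6% for ult1-3 became 23.8% to 27.2% when any 1 library of Ler or ult1-3 was left out, and 7.20% for ult1-2 became 15.4% to 21.3% when any 1 of Ler or ult1-2 was.

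Most of the ult1-3 genes in the Col-0 state lay in 5 stretches, at 0 to 4, 6 to 11 and 24 to 31 Mb of chromosome 1, 7 to 10 Mb of chromosome 3 and 13 to 19 Mb of chromosome 4. The stretches were drawn after the values were seen, so the counts inside them are descriptions and no test was made. They hold 24.02% of the protein-coding genes. Inside them 54 of 123 differing genes (43.9%) were in the Col-0 state in ult1-3, and 33 of 474 (6.96%) in the rest of the genome. For ult1-2 the values were 7.32% inside and 7.17% outside, and for 35S::ULT1 2.44% and 5.06%. ULT1 lies in the stretch of chromosome 4. Of the 23 differing genes on the side of ULT1 that ends the chromosome arm, 10 were in the Col-0 state in ult1-3, and of the 84 on the other side 3 were.

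**Figure D3:**
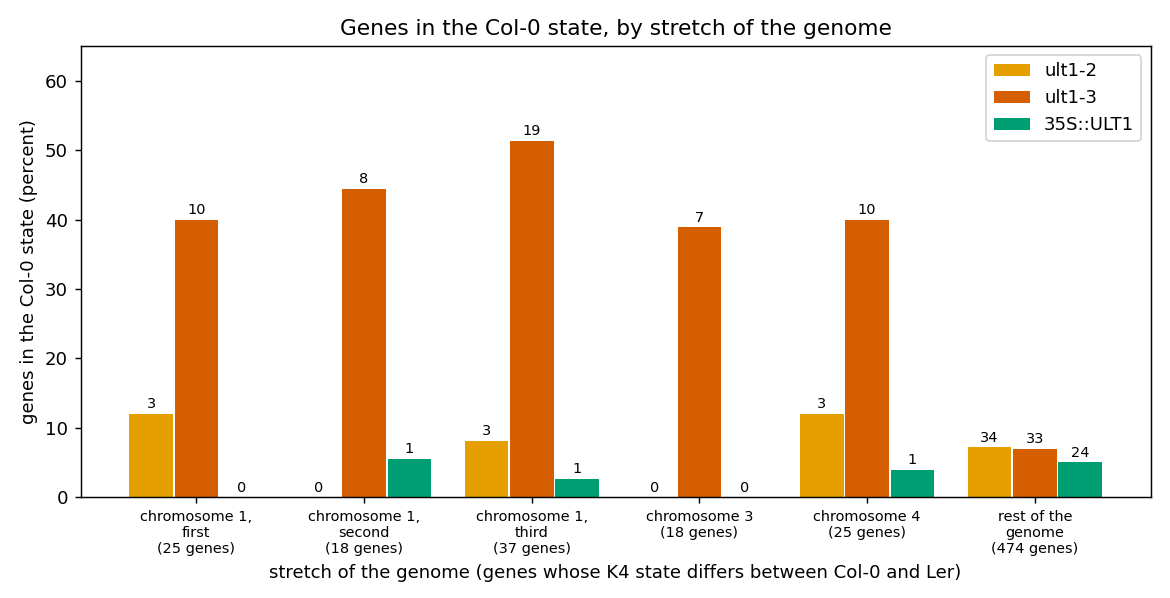
Percent of the genes with different K4 states in Col-0 and Ler that were in the Col-0 state in both libraries of ult1-2, ult1-3 or 35S::ULT1, in 5 stretches drawn after the values were seen and in the rest of the genome, with the number of genes above each bar. The ult1-3 bars stand at 38.9% to 51.4% in the 5 stretches and at 6.96% elsewhere.

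Of the 96 regions called in ult1-3 with the number as a block, 88 (91.7%) lay inside, against 25.3% of the tested regions, and chromosome 5 held none. These calls come from the same libraries as the values seen when the stretches were drawn. The share inside is therefore a description and no independent support for the stretches. Among the 79 that rose, the median log2 difference from Ler was 0.65 in ult1-3, 0.06 in ult1-2, -0.02 in 35S::ULT1 and 0.59 in Col-0, all against the same Ler libraries. Values differed by stretch in ult1-2. In the first stretch of chromosome 1, where SIG2, HEMA2 and CJD1 lie, its median was 0.32 over 15 regions against 0.68 in ult1-3. In the second it was 0.15 over 15 regions against 0.79, and in the third -0.02 over 16 regions against 0.54. In the second stretch, the region of AT1G19394 and AT1G19396 had 15.4 and 16.5 reads per M in Ler, 25.3 and 22.7 in ult1-2, and 46.9 and 52.95 in ult1-3, the largest log2 difference of the 15 (1.64). For H3K27me3, 98 of 214 differing genes inside the stretches (45.8%) were in the Col-0 state in ult1-3 and 5.66% outside, and 20.6% and 12.5% in ult1-2. Of the 73 genes changed in ult1-2, 12 (16.4%) lay inside the stretches, and of the genes changed in both alleles 6 of the 19 lost and 1 of the 11 gained did, against 24.02% of all protein-coding genes. Within the stretches, the ult1-3 mutation and the Col-0 state that goes with it cannot be told apart in these libraries.

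**Figure D4:**
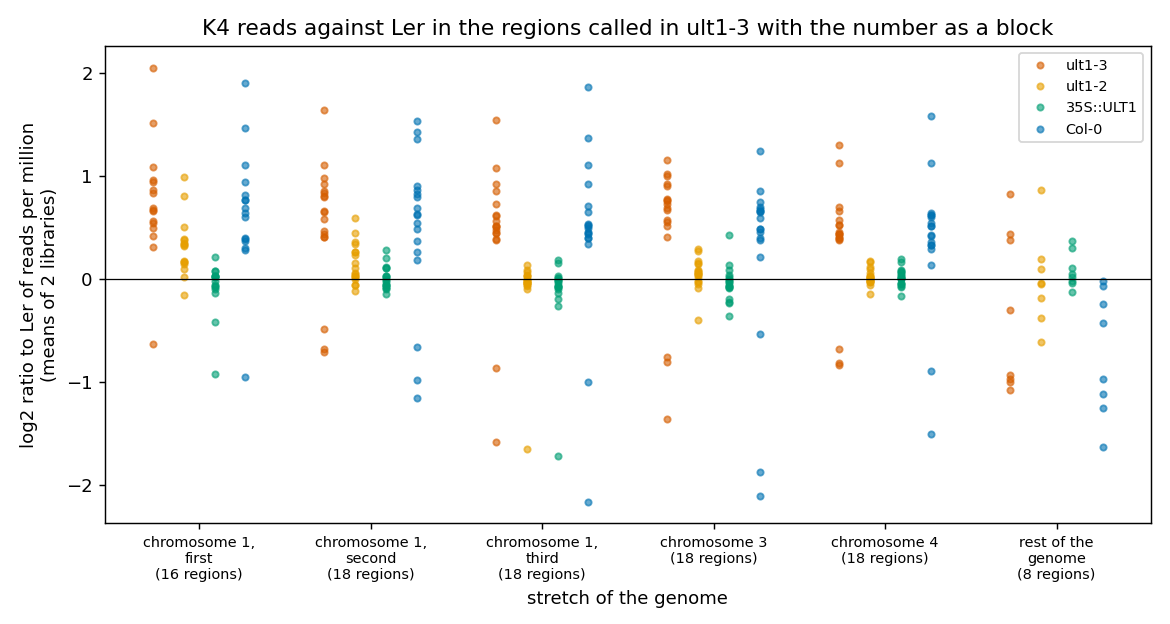
Log2 ratio to Ler of reads per M for the 96 regions called in ult1-3 with the list number as a block, by stretch, in 4 genotypes. The ult1-3 and Col-0 points spread over like ranges in the 5 stretches, 35S::ULT1 lies mostly around 0, and ult1-2 is raised most in the first stretch of chromosome 1.

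Over 16796 genes with a peak in all 6 libraries, those in called regions included, the log2 difference in reads per kb of peak had a median of -0.03 in ult1-2 and 0.03 in ult1-3, with 5th to 95th percentiles of -0.20 to 0.11 and -0.12 to 0.22. For Ler list 3 minus list 1, which compares single libraries and includes the effect of the number, they were -0.43 to 0.16. Peaks that touched no Ler peak were few and weak: 71 and 148 in ult1-2 (0.457% and 0.916% of the peaks) and 65 and 242 in ult1-3 (0.415% and 1.48%), with a median fold over control of 1.34 to 1.86 against 2.44 to 4.48 for the other peaks.

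Chosen genes were also followed as 6 lists, 112 genes in all, each found in the gene table. The lists were K4 methylation and demethylation, ULT1 with Polycomb and trithorax, floral identity, meristem and boundary, flowering time, and housekeeping. Of the 17 genes of K4 methylation and demethylation, 16 were marked in all 6 libraries and 1 in none. Of the 19 ULT1, Polycomb and trithorax genes 15 were marked in all and 3 in none, and of the 14 housekeeping genes 14 in all. Of the 21 floral identity genes 17 were marked in none of the 6 libraries. Of all 27444 genes, 16056 were marked in all 6 libraries and 9445 in none. A single list member of the 112 was lost or gained in an allele, against 178 of all 27444 genes. That member was the bZIP gene PERIANTHIA (PAN, AT1G68640), an activator of AGAMOUS in flowers. It had no K4 peak in Ler, ult1-2 or 35S::ULT1, 26% cover in both ult1-3 libraries and 19.5% in both Col-0 libraries, and its peak (chromosome 1, 25771601 to 25772400) lies in the third stretch. The other members were neither lost nor gained by the rule. limma tested 80 of the 112 members and called 0, as over all genes. It called none of the simulated shifts either, so this does not show that cover of the members was equal. The median change in covered bp, over list members tested, was 0 in both alleles for the floral identity, meristem and flowering time lists, as over all 18300 genes tested. For the Polycomb and trithorax list it was 100 bp in ult1-2 and 0 in ult1-3. For the housekeeping list it was 0 in ult1-2 and -100 bp in ult1-3, and for the K4 list 0 and -5.25 bp. All of these are smaller than the 200 bp window of the peak lists.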

How the data were processed

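Sheared chromatin was immunoprecipitated and sequenced. The submitters' processing notes name the peak caller SICER 1.1, the aligner BWA 0.6.2-r126, the TAIR10 build, and CASAVA 1.8.2, Picard 1.93, SAMtools 0.1.19 and bedtools 2.17.0-97, without their settings. Each deposited list gives, for every peak, the authors' count of ChIP reads. It also gives the authors' fold over the control, an enrichment ratio, and a q-value, both made by the authors' peak caller; the control counts were not used. Reads outside peaks were not counted in the lists, so reads are per M (1e6) reads in peaks.

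One list each of Ler and ult1-2 carries the number 3 where the labels give 2, and was assigned by genotype alone. Peaks were set against 27444 protein-coding genes of the RefSeq table (TAIR10.1), whose frame was checked on 112 windows and fitted best unshifted in 105. Covered bp per gene was tested with limma 3.58.1 (trend, robust, variance floored at the SD of 81.6 bp that the 200 bp windows give) on 18300 genes, and reads per region with edgeR 4.0.16 (TMM, quasi-likelihood) in regions with a peak in all 6 lists. P-values were adjusted by Benjamini-Hochberg over all features, with a threshold of 0.05, in R 4.3.3. Both fits were tested on simulated data: edgeR kept its error rate with dispersions that follow the trend and exceeded it with a dispersion for each region, more so with the block. limma estimated the simulated shifts in bp but called none of them.

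Same-numbered libraries deviated together (r of deviations across genes or regions 0.534, 0.390 and 0.391 for covered bp and 0.716, 0.536 and 0.545 for log2 reads), so the number was also fitted as a block. The genes named were those changed in both alleles, the 10 largest changes of each allele in each direction, and the 10 regions with the smallest p. Not all of them are described. Alternatives were the threshold of cover, all annotated genes, a stricter q-value, equal peak numbers, no variance floor, DESeq2 1.42.0, no TMM, no filter, the covered length as an offset, 8 libraries with 35S::ULT1, and each library left out. The members, gene lists and stretches were chosen with earlier results of these data known.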

Additional observations from a re-analysis of the deposited data

Results flagged for a closer look

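The 2 alleles differed from each other in reads at 59 regions when edgeR was fitted with the library number as a block (edgeR adjusted p under the threshold; 46 higher in ult1-3, 13 lower), and at 0 regions without the block. This test sets ult1-3 directly against ult1-2. The Ler libraries were part of the fit but not of the contrast. Of the 59 regions, 51 (86.4%) lay in the 5 stretches of chromosomes 1, 3 and 4, against 25.3% of the tested regions. The stretches were drawn after the values of these libraries were seen, so this share is a description. On simulated counts the blocked fit made more false calls than its threshold allows when each region had its own dispersion, so the 59 are uncertain.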

How the results depend on the processing

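Counts by the marking rule moved by over 1.5 times as follows. With a stricter q-value, losses fell to 18 in ult1-2, 47 in ult1-3 and 11 in both alleles, those in the Col-0 state to 6, gains in both and in the Col-0 state to 3, and the share of differing genes in the Col-0 state in ult1-2 to 4.72%. With 800 bp or 80%, 101 genes were gained in ult1-2 and 155 lost in ult1-3, and with 200 bp or 20%, 49 were lost in ult1-3. With all annotated genes 55 were gained in ult1-2, and 8 in both alleles and in the Col-0 state. With equal peak numbers 64 were gained in ult1-2. Of the 19 and 11 genes changed in both alleles, 7 and 6 were still called with the stricter q-value, 7 and 4 with equal peak numbers, 9 and 6 at 200 bp, and 8 and 2 at 800 bp.
With each library left out in turn, losses ranged from 38 to 249 in ult1-2, from 76 to 431 in ult1-3 and from 20 to 104 in both, and gains from 35 to 220, 59 to 232 and 11 to 98. Those in both and in the Col-0 state ranged from 12 to 73 and from 5 to 73, and the Col-0 shares from 15.4% to 21.3% in ult1-2 and 23.8% to 27.2% in ult1-3. A rule over fewer libraries is looser by construction. Alleles minus Ler ranged from -464 to 132 peaks, -0.750 to 0.612 Mb covered, 0.369 to 1.07 M reads in peaks, -367 to 179 marked genes and -0.761 to 1.00 in median fold. Without Ler list 3 the differences were 132 peaks, 0.586 Mb and 179 genes, and without ult1-3 list 1 0.612 Mb and 92.7 genes. That of fold was -0.761 without Ler list 1, -0.176 without ult1-2 list 3 and -0.13 without ult1-3 list 3.
Without the variance floor limma called 171 genes for ult1-2, 226 for ult1-3, 314 for both alleles and 250 between alleles. With the replicate block edgeR called 2, 96, 2 and 59 regions in that order, and limma 0 throughout. DESeq2 called 24, 166, 74 and 157, and edgeR without the filter 2, 9, 5 and 5, and with 8 libraries 0, 27, 3 and 22. With the covered length as an offset, alone or with the replicate block, and with any library left out, it called 0. The cause was not tested.
Mean cover of a few genes turned. In percent points, with equal peak numbers AT3G28270 stood at 4.84, AT3G47570 at 4.24, AT3G53250 at 22.3 and AT1G61440 at -2.66, and with the stricter q-value AT3G53250 at 22.3, AT4G32860 at 10.3 and AT1G61440 at -0.145. The NPQ7 region (AT1G65420) stood at log2 -0.16 with the offset and -0.17 with block and offset.
The lists hold called peaks only, so a weak peak that missed the caller's threshold counts as 0 cover, and 2 libraries a genotype limit every test.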
